A study of Mus musculus with 4 samples.

Results

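Genes of the elastic fibre and its microfibrils, 10 in number, were followed in RNA sequencing of mouse skin fibroblasts with and without LAP2alpha. They were grouped by their known function, with earlier results of these data already known, as *Fbn1*, *Fbn2*, *Eln*, *Fbln2*, *Fbln5*, *Efemp2*, *Ltbp2*, *Mfap4*, *Mfap5* and *Lox*. All 10 genes were matched by RefSeq symbol to transcript IDs among the 32757 IDs of the count tables. Where a gene had several IDs, the ID with the highest summed count stands for it.

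LAP2alpha is a nucleoplasmic protein made from the gene *Tmpo* that binds A-type lamins. Immortalized murine dermal fibroblasts (imMDFs) of the genotype Lap2alpha +/+ (*Tmpo* WT) and Lap2alpha -/- (*Tmpo* KO) were grown without treatment in the same medium. Each genotype gave 1 library at passage 34 (replicate 1) and 1 at passage 42 (replicate 2), 4 libraries in all. A single line stands for each genotype in the sources, so effects of the knockout and of the line cannot be told apart. No source calls the replicates separate cultures, only separate passages. The p-values then cover no more than the spread among the 4 libraries, and this spread may be technical.

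Elastic fibres let skin, arteries and lungs stretch and recoil. Each fibre has a core of crosslinked elastin and a mantle of microfibrils, which are built mainly from fibrillins and carry further glycoproteins. Fibulins and latent TGF-beta binding proteins guide elastin and lysyl oxidase onto the microfibrils, and lysyl oxidase then crosslinks elastin and collagen. Microfibrils also hold growth factors of the TGF-beta family in a latent form in the matrix. Dermal fibroblasts make most of these components in skin.

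Reads given to transcripts numbered between 12168433 and 19603812 per library. The gene targeted in the KO, *Tmpo*, was first checked on its ID with the most reads (NM_011605), which held 903 (WT) and 1324 (WT) against 6 (KO) and 6 (KO) counts. The log2 fold change was -7.86 (SE 0.337, adjusted p = 1.26e-06, edgeR's quasi-likelihood test with Benjamini-Hochberg adjustment over all transcripts tested), and the gene was called in each alternative fit that kept it. The filter of 1 CPM in all 4 libraries removed it. Of 10 fibroblast markers, 9 had at least 1 CPM (the count scaled to the reads given to transcripts) in all 4 libraries, and their summed level was 15926 and 14821 CPM in WT and 13075 and 17104 CPM in KO at passages 34 and 42. The fibroblast marker genes *Lum*, *Dcn* and *Pdgfra* were low, at 0.760 to 2.38, 3.93 to 12.3 and 1.48 to 4.08 CPM. *Dcn* and *Pdgfra* have 2 IDs each, and reads in exons that the IDs of a gene share were set aside as ambiguous. Their values thus cover only what is unique to an ID and may lie below the level of the gene. Of the 10 fibroblast markers, 1 was called, *Thy1*, a surface protein, which was higher in KO (log2 fold change 1.80, SE 0.268, adjusted p = 0.00469). The median log2 fold change of the list was -0.33. Both KO libraries lay above both WT libraries in 1 marker and below them in 3. Over all 13855 transcripts tested, they lay above in 3216 and below in 2561. The other marker lists were mixed. *Ptprc* (leukocytes), *Pecam1* (endothelium) and *Myh11* (mature smooth muscle) held 0 to 5 counts per library. These genes have 3, 2 and 2 IDs, so reads in shared exons were set aside and the low counts do not show absence. The contractile genes *Acta2*, *Tagln* and *Cnn1* were at 1658 to 2448, 326 to 587 and 179 to 252 CPM. *Tyr* (melanocytes) was at 25.8 to 41.4 CPM. The melanocyte markers *Dct*, *Pmel*, *Mlana* and *Mitf* (3 IDs) were far lower, at 0.816 to 2.85, 0.824 to 1.99, 0 to 0.255 and 0.459 to 1.14 CPM. *Csf1r* (macrophages) was at 5.23 to 11.02 CPM, and *Vwf* and *Cdh5* (endothelium) were at 3.83 to 5.42 and 2.35 to 3.38 CPM. Of 5 cartilage markers, 3 were tested and 2 were lower in KO, *Sox9* (log2 fold change -1.41, SE 0.254, adjusted p = 0.0125) and *Col2a1* (30 and 59 counts in WT, 0 and 4 in KO), while *Acan* had a log2 fold change of 0.19 (adjusted p = 0.928). *Col2a1* has 2 IDs, so its counts cover only what is unique to an ID. *Sox9* made up most of the summed level of the list, which was 118 and 198 CPM in WT and 65.4 and 58.0 CPM in KO. Without the WT library of passage 42 the log2 fold changes of *Thy1*, *Sox9* and *Col2a1* were 1.71, -0.99 and -4.41, with adjusted p of 0.0720, 0.198 and 0.0705. Of the smooth muscle, endothelial, keratinocyte, leukocyte and melanocyte lists, 4 of 7, 3 of 6, 4 of 5, 3 of 6 and 3 of 5 markers were tested. Among those, 0 were called by edgeR or DESeq2 and 0, 0, 1, 1 and 0 had an unadjusted p under 0.05, and the summed levels of the lists were 2164 to 3156, 9.39 to 10.8, 10.6 to 13.7, 8.87 to 16.2 and at most 46.2 CPM per library. The part of these markers in the results for elastic fibre genes was not tested, and fewer cells of a type cannot be told apart from less RNA per cell.

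All 10 elastic fibre genes passed the filter on low counts, and each had at least 1 CPM in all 4 libraries. Of these, 3 genes (*Fbn2*, *Fbln5* and *Ltbp2*) were higher in KO, 0 were lower, and 7 were not called at an adjusted p under 0.05 (edgeR). The unadjusted p was under 0.05 in 6 genes higher and 0 lower in KO, and DESeq2 called 4 higher and 0 lower. The same shares over all transcripts tested were 6.95% higher and 5.81% lower at an unadjusted p under 0.05, and 2.01% and 1.91% by DESeq2. Over all 13855 transcripts tested, 1.51% were called higher in KO and 1.24% lower. Both KO libraries lay above both WT libraries in 5 of the 10 genes, which adds *Fbn1* and *Mfap4*, against 23.2% of all transcripts tested. The median log2 fold change was 0.80 over the 10 genes and 0.016 over all transcripts. Without the WT library of passage 42 the same edgeR test lost the calls of *Fbn2*, *Fbln5* and *Ltbp2*. The log2 fold changes of *Fbn2*, *Fbln5* and *Ltbp2* were then 3.03, 1.30 and 1.29, against 3.19, 1.53 and 1.37 with all libraries, and calls over all transcripts fell from 381 to 109. In the fits without a KO library edgeR found no difference in spread among transcripts (infinite prior degrees of freedom), which makes their p-values small, so no call is read from them.

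**Figure D1:**
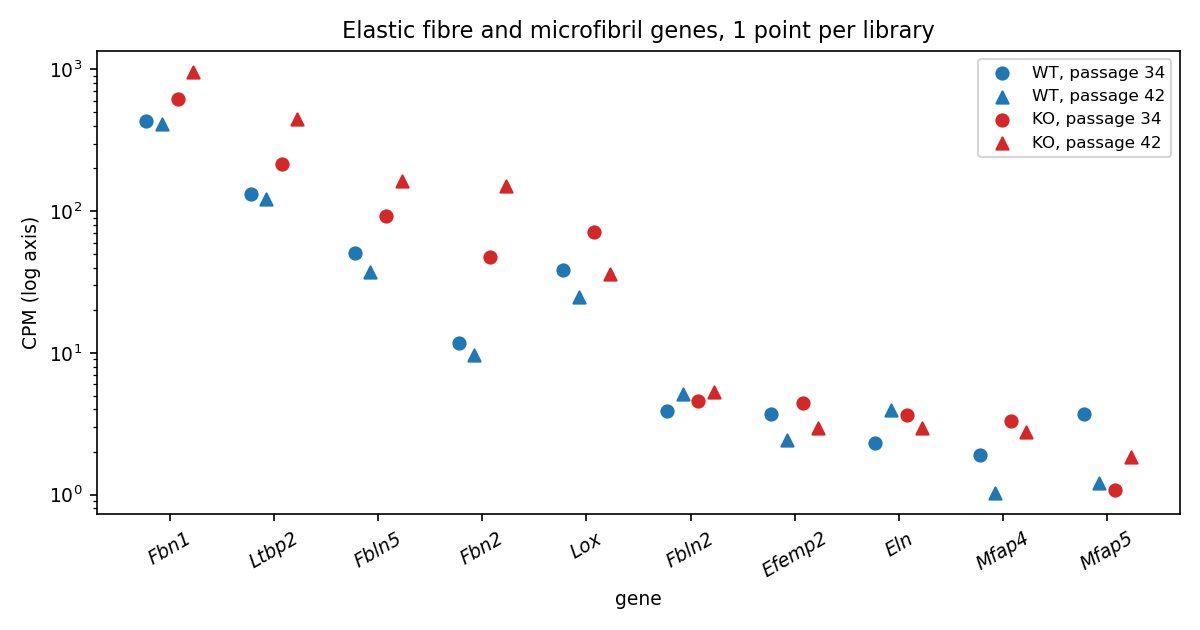
Level of each of the 10 genes in every library, in CPM on a log axis, with WT in blue, KO in red, circles for passage 34 and triangles for passage 42. The red points of *Fbn1*, *Ltbp2*, *Fbln5*, *Fbn2* and *Mfap4* lie above their blue points, and *Fbn2* shows the widest gap, from 9.70 and 11.8 CPM in WT to 47.3 and 150 CPM in KO.

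The promoter stretches of *Ltbp2* and *Fbln5* are shown because both genes were higher in KO and a sequence was at hand for them. *Ltbp2*, the latent TGF-beta binding protein that attaches to fibrillin microfibrils, and *Fbln5*, the fibulin that tethers elastin to cells and microfibrils, both lie on chromosome 12. The sequences are RefSeq's on GRCm38.p6, read 5′ to 3′ along the minus strand, and end at the base before the gene's annotated span. For *Fbln5* the 250 bases end just before the start site of the promoter window. For *Ltbp2* the 183 bases stop short of that site. They cover chr12:84876559-84876741 for *Ltbp2* and chr12:101819120-101819369 for *Fbln5*.
Ltbp2: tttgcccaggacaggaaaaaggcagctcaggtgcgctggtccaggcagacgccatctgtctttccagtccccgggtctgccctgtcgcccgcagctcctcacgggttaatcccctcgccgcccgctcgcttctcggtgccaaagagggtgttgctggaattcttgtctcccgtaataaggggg
Fbln5: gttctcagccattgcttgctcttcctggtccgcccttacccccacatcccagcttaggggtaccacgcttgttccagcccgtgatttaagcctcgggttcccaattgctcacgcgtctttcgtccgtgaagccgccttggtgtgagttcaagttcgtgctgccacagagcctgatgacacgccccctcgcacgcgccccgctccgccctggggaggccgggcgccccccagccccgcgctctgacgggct

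A search for 4 short motifs was made on both strands in the 300-base RefSeq promoters, which run past the start site. They were TATAAA (a core promoter box), TGANTCA (bound by AP-1), GGAATG (bound by TEAD factors) and CAGACA (bound by Smad proteins), and 13.6%, 7.81%, 14.7% and 21.0% of all 32851 promoters held them. Neither of the promoters above held any of the 4, so no letters are in capitals. Entries were found for 5 of the 10 genes (*Fbn1*, *Fbln2*, *Fbln5*, *Efemp2* and *Ltbp2*), with 8 windows in all, and the search gave 1 match, a CAGACA 15 bases before a second start site of *Fbln5*. The GC content was 61.0% in the *Ltbp2* window, 65.7% in the first window of *Fbln5* and 60.3% in that of *Fbn1*, against a median of 52.7% over all promoters. It was 48.7% in the second window of *Fbln5*, 60.3% in that of *Fbln2* and 60.3%, 76% and 78.3% in those of *Efemp2*. *Fbn2*, *Eln*, *Mfap4*, *Mfap5* and *Lox* had no entry.

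Fibrillins form the backbone of the microfibril. *Fbn2*, fibrillin-2, is the isoform that dominates in developing tissue (NM_010181, chr18:58168277-58369580, minus strand, NCBIM37/mm9). It was measured at 11.8 CPM in WT at passage 34, 9.70 CPM in WT at passage 42, 47.3 CPM in KO at passage 34 and 150 CPM in KO at passage 42. Both KO libraries were above both WT libraries, and the KO library of passage 42 was by far the highest. The mean rose from 10.8 ± 1.51 CPM in WT to 98.6 ± 72.5 CPM in KO (SD, n = 2 each), a log2 fold change of 3.19 (SE 0.462, adjusted p = 0.00394, edgeR's quasi-likelihood test). The KO minus WT difference in log2 CPM (with a prior count of 2) was 1.91 at passage 34 and 3.96 at passage 42. Without the KO library of passage 42 the log2 fold change was 2.04. Without the WT library of passage 42 the adjusted p was 0.0580.

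*Fbn1*, fibrillin-1, is the main fibrillin of adult connective tissue and the gene mutated in Marfan syndrome (NM_007993, chr2:125126330-125333729, minus strand). It was measured at 434 and 410 CPM in WT and at 623 and 961 CPM in KO, at passages 34 and 42. The groups did not overlap, but the difference missed the threshold, with a log2 fold change of 0.89 (SE 0.252, adjusted p = 0.113, edgeR's quasi-likelihood test). DESeq2 gave an adjusted p of 0.0348 for it. The log2 fold change was 1.18 without the KO library of passage 34 and 0.46 without that of passage 42. The gene *Gm9913* lies on the other strand within *Fbn1*, and whether reads were counted by strand is not stated in the sources used here.

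The share of fibrillin-2 in the fibrillin reads was taken per kilobase of exon, since it compares levels of different genes. *Fbn2* made up 3.06% of the sum of *Fbn1* and *Fbn2* in WT at passage 34 (95% Clopper-Pearson interval 2.58 to 3.59%) and 2.66% at passage 42 (2.26 to 3.12%). In KO it made up 8.09% (7.54 to 8.66%) and 15.3% (14.8 to 15.8%). The KO intervals lay above the WT intervals, and that of KO at passage 42 lay above that of KO at passage 34. These intervals cover counting error only. *Fbn1* held most of the fibrillin reads in every library.

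*Ltbp2* (NM_013589, chr12:86124162-86217482, minus strand, NCBIM37/mm9) was measured at 132 and 121 CPM in WT and at 217 and 445 CPM in KO, at passages 34 and 42. Both KO libraries were above both WT libraries, which were close to each other. The mean rose from 127 ± 7.74 to 331 ± 161 CPM (SD, n = 2 each), a log2 fold change of 1.37 (SE 0.308, adjusted p = 0.0396, edgeR's quasi-likelihood test). The difference in log2 CPM was 0.64 at passage 34 and 1.90 at passage 42. The call was lost without WT of passage 34 (log2 fold change 1.47) and without WT of passage 42 (1.29). Without KO of passage 42 the log2 fold change fell to 0.67. *D030025P21Rik* overlaps *Ltbp2* on the other strand.

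*Fbln5*, fibulin-5, is needed for elastic fibre assembly (NM_011812, chr12:102984775-103057265, minus strand, NCBIM37/mm9). It was measured at 50.7 and 37.1 CPM in WT and at 92.4 and 164 CPM in KO, at passages 34 and 42. The lowest KO library was above the highest WT library. The mean rose from 43.9 ± 9.65 to 128 ± 50.5 CPM (SD, n = 2 each), a log2 fold change of 1.53 (SE 0.297, adjusted p = 0.0188, edgeR's quasi-likelihood test). The KO minus WT difference in log2 CPM was 0.79 at passage 34 and 2.16 at passage 42. Without the KO library of passage 42 the log2 fold change was 0.97, and without the WT library of passage 42 the adjusted p was 0.236.

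The WT and KO values of *Fbln2* and *Efemp2* overlapped. *Fbln2*, fibulin-2, binds fibrillin and elastin (NM_007992, chr6:91162449-91222534, plus strand) and held 47 and 81 counts in the WT libraries, against 72 and 104 in those of the KO. *Efemp2*, fibulin-4, recruits lysyl oxidase to elastin (NM_001164352, chr19:5473973-5481853, plus strand) and held 45 and 38 counts in the WT libraries, against 70 and 58 in those of the KO. The highest CPM value of *Fbln2* and of *Efemp2* was in KO and the lowest in WT. Their log2 fold changes were 0.10 (SE 0.358, adjusted p = 0.956) for *Fbln2* and 0.24 (SE 0.408, adjusted p = 0.896) for *Efemp2*, and each changed sign when some libraries were left out. Both genes have 2 IDs, and their second IDs held 0 counts for *Fbln2* and 1 to 2 per library for *Efemp2*. Reads in exons that the IDs of a gene share were set aside as ambiguous, so these counts cover only what is unique to an ID.

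*Eln* encodes tropoelastin, the subunit of the fibre core (NM_007925, chr5:135179651-135223111, minus strand). The WT libraries held 28 and 62 counts and the KO libraries 58 and 58, or 2.30, 3.95, 3.67 and 2.96 CPM. The highest and the lowest value were both WT, so the groups overlapped. The log2 fold change was 0.047 (SE 0.404, adjusted p = 0.986), and its sign was not stable to leaving out a library. With 28 counts the 95% Poisson interval ran from 18.6 to 40.5 counts, so only large differences could be detected at this depth.

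The microfibril-associated proteins decorate the fibrillin backbone. *Mfap4* (NM_029568, chr11:61298933-61302402, plus strand) held 23 and 16 counts in the WT libraries, against 52 and 54 in the KO libraries, or 1.89, 1.02, 3.29 and 2.75 CPM. Both KO libraries were above both WT libraries, but the log2 fold change of 1.04 (SE 0.443) was not called (adjusted p = 0.349, edgeR's quasi-likelihood test). *Mapk7* overlaps it on the other strand. *Mfap5*, which encodes MAGP-2 (NM_015776, chr6:122455863-122479308, plus strand), held 45 and 19 counts in the WT libraries, against 17 and 36 in the KO libraries. It was higher in WT at passage 34 and higher in KO at passage 42, and its log2 fold change was -0.73 (SE 0.554, adjusted p = 0.696). It is the only one of the 10 genes with a log2 fold change below 0, and without the WT library of passage 34 its value was 0.29.

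*Lox*, lysyl oxidase, makes the crosslinks of elastin and collagen (NM_010728, chr18:52675723-52689521, minus strand). It was measured at 38.6 CPM in WT and 70.8 CPM in KO at passage 34, and at 24.8 CPM in WT and 36.2 CPM in KO at passage 42. KO was above WT within each passage, but the KO library of passage 42 was below the WT library of passage 34, so the groups overlapped. The log2 fold change was 0.72 (SE 0.323, adjusted p = 0.386, edgeR's quasi-likelihood test). The value for *Lox* moved with each library left out, to log2 fold changes of 1.10 (without WT of passage 34), 0.42 (without WT of passage 42), 0.19 (without KO of passage 34) and 1.06 (without KO of passage 42). *Lox* has 3 IDs, and those other than NM_010728 held 0 to 3 counts per library. Reads in exons that the IDs share were set aside as ambiguous. The values of *Lox* thus cover only what is unique to an ID and may lie below the level of the gene.

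Levels of different genes were compared in CPM per kilobase of exon, for the 7 genes with 1 ID. In WT the order was *Fbn1* (mean 34.8), *Ltbp2* (15.5) and *Fbln5* (7.53), and the ranges of these 3 did not overlap. *Eln* (1.21), *Fbn2* (1.03), *Mfap4* (0.757) and *Mfap5* (0.684) followed in WT, with ranges that overlapped. In KO the means were 65.3 for *Fbn1*, 40.3 for *Ltbp2*, 22.0 for *Fbln5* and 9.41 for *Fbn2*. The KO ranges of *Fbn1* and *Ltbp2* overlapped across the passages, as did those of *Ltbp2* and *Fbln5*. Within each KO library the order was the same. *Fbn1*, *Ltbp2*, *Fbln5* and *Fbn2* were at 51.3, 26.4, 15.9 and 4.52 at passage 34, and at 79.3, 54.3, 28.1 and 14.3 at passage 42. *Eln* was below these genes, at 1.42 and 1.15.

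The KO minus WT difference was above 0 in 9 of the 10 genes at passage 34 and in 9 at passage 42. The exceptions were *Mfap5* at passage 34 and *Eln* at passage 42. The share of all transcripts above 0 at each passage was not counted. In the fit of all 4 libraries the log2 fold change was above 0 in 9 of the 10 genes and in 7156 of all 13855 transcripts. The median difference in log2 CPM over the 10 genes was 0.61 at passage 34 and 0.91 at passage 42, against 0.010 and 0.0057 over all transcripts. In all 3 called genes the difference was larger at passage 42. From passage 34 to 42 the WT level of *Fbn2*, *Fbln5*, *Ltbp2* and *Fbn1* changed by -0.32, -0.48, -0.16 and -0.12 in log2 CPM, and the KO level by 1.73, 0.89, 1.10 and 0.69. These 4 genes were thus lower at passage 42 in WT and higher in KO. With 1 library per genotype and passage the difference between the passages could not be tested.

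**Figure D2:**
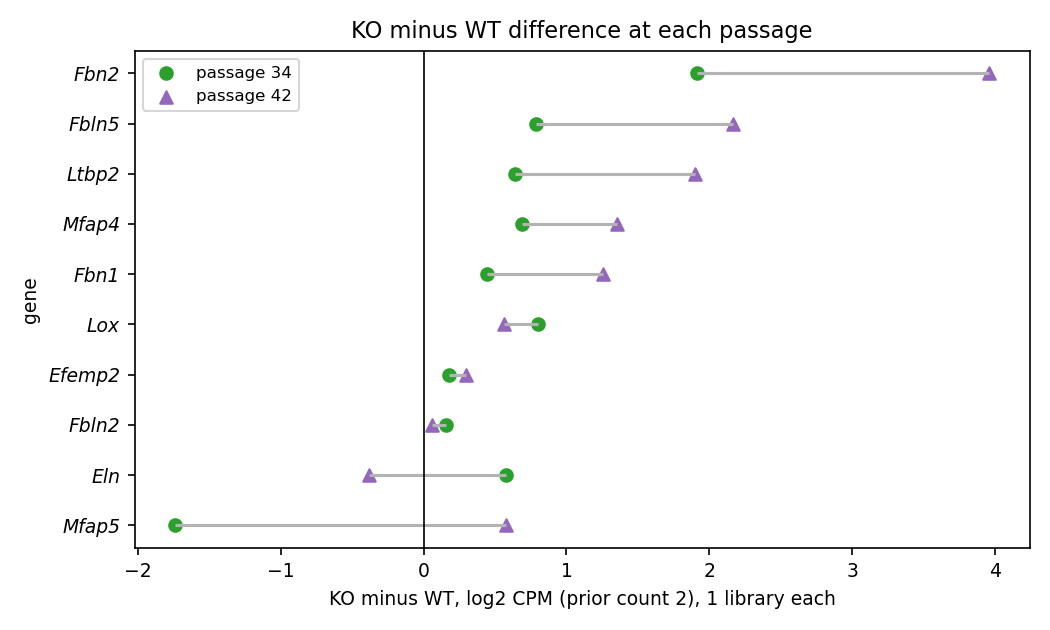
KO minus WT difference of each of the 10 genes in log2 CPM, at passage 34 (green circles) and passage 42 (purple triangles), from 1 library each. The differences of *Fbn2*, *Fbln5*, *Ltbp2*, *Mfap4* and *Fbn1* are above 0 at both passages and larger at passage 42, and those of *Eln* and *Mfap5* change sign.

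Passage itself was tested across both genotypes, in a fit with genotype as a term and 1 residual degree of freedom. It called 2 of the 10 genes, against 2.31% of all transcripts tested in either direction and 1.77% higher at passage 42. Its terms are the same as those of the KO against WT fit with a block for replicate number, which marks the passage. That fit had infinite prior degrees of freedom, which makes p-values small, so these calls alone do not show an effect of passage. *Fbn2* was higher at passage 42 (log2 fold change 0.80, SE 0.240, adjusted p = 0.0428), although its WT value was lower there. *Lox* was lower at passage 42 (log2 fold change -0.79, SE 0.238, adjusted p = 0.0428), and this held in WT (-0.67) and in KO (-0.90 in log2 CPM). *Ltbp2* had a log2 fold change of 0.48 (adjusted p = 0.180) between the passages. DESeq2 called 0 of the 10 genes for passage.

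Other genes of the same matrix were counted from 4 lists. Of 21 further microfibril and elastic fibre components, 15 could be tested, 0 were higher in KO and 1 was lower, with a median log2 fold change of -0.26. At an unadjusted p under 0.05 edgeR gave 2 higher and 4 lower, and DESeq2 called 1 higher and 2 lower. The lower gene was *Emilin2*, an elastin-microfibril interface protein. It was at 284 and 276 CPM in WT and 130 and 169 CPM in KO (log2 fold change -0.93, SE 0.215, adjusted p = 0.0454, edgeR). Its call was lost without WT of passage 34 (-0.87) or WT of passage 42 (-0.97). Without KO of passage 34 *Emilin2* had a log2 fold change of -0.73. Nearest to the threshold after it were *Hmcn1*, a hemicentin of the fibulin family (2.15, adjusted p = 0.0514), and *Adamtsl4*, which binds fibrillin-1 (-1.07, adjusted p = 0.0809). *Efemp1*, fibulin-3, named after its values were seen, was at 236 and 141 CPM in WT and 267 and 464 CPM in KO (0.93, adjusted p = 0.190), and both KO libraries of *Hmcn1* and *Efemp1* were above both WT libraries. The median of this list lay below 0 and that of the 10 genes above 0, a contrast that was not tested.

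Of 9 genes for lysyl oxidase-like enzymes and lysyl oxidase activation, 7 were tested, 0 were higher and 1 was lower, with a median log2 fold change of 0.25. At an unadjusted p under 0.05 edgeR gave 3 higher and 1 lower, and DESeq2 called 0 higher and 1 lower. The lower gene was *Postn*, periostin, a matrix protein that promotes activation of lysyl oxidase, with 29 and 95 counts in the WT libraries against 10 and 21 in the KO libraries (log2 fold change -2.31, SE 0.534, adjusted p = 0.0453). *Postn* has 3 IDs, so these counts cover only what is unique to an ID. Its call was lost without the WT library of passage 42 (log2 fold change -1.497). It was also lost in the edgeR fit with counts summed per gene symbol (-2.06, adjusted p = 0.0781). The crosslinking enzymes *Loxl3* (0.73, adjusted p = 0.101) and *Loxl2* (0.95, adjusted p = 0.247) were not called.

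Of 7 growth factor genes of the TGF-beta family, 7 were tested, 1 was higher and 0 were lower (3 and 1 at an unadjusted p under 0.05 by edgeR, 2 and 1 called by DESeq2), with a median log2 fold change of -0.011. It was *Tgfb1*, the ligand TGF-beta 1, at 6.41 and 4.59 CPM in WT and 19.8 and 15.0 CPM in KO (log2 fold change 1.64, SE 0.327, adjusted p = 0.0213). Both KO libraries were above both WT libraries, and the call was lost without the WT library of passage 34 (1.93, adjusted p = 0.0808) or of passage 42 (1.40, adjusted p = 0.331). *Tgfb2*, TGF-beta 2, had a log2 fold change of -1.06 (adjusted p = 0.0576), and *Inhba*, an activin subunit, of 1.21 (adjusted p = 0.0626).

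Of 8 proteases that degrade elastin or associated matrix, 6 were tested, 0 were higher and 2 were lower (1 and 2 at an unadjusted p under 0.05 by edgeR, 1 and 2 called by DESeq2), with a median log2 fold change of -0.027. *Mmp2*, gelatinase A, was at 774 and 456 CPM in WT and 178 and 221 CPM in KO (log2 fold change -1.65, SE 0.278, adjusted p = 0.00914). *Mmp9*, gelatinase B, was at 29.7 and 30.2 CPM in WT and 4.69 and 9.23 CPM in KO (-2.11, SE 0.349, adjusted p = 0.00800). The groups did not overlap for either gelatinase, and the call was lost without WT of passage 34 for *Mmp2* (-1.18, adjusted p = 0.0666) and without WT of passage 42 for *Mmp9* (-2.12, adjusted p = 0.0706). *Ctsk*, cathepsin K, had a log2 fold change of 1.34 (adjusted p = 0.145).

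**Figure D3:**
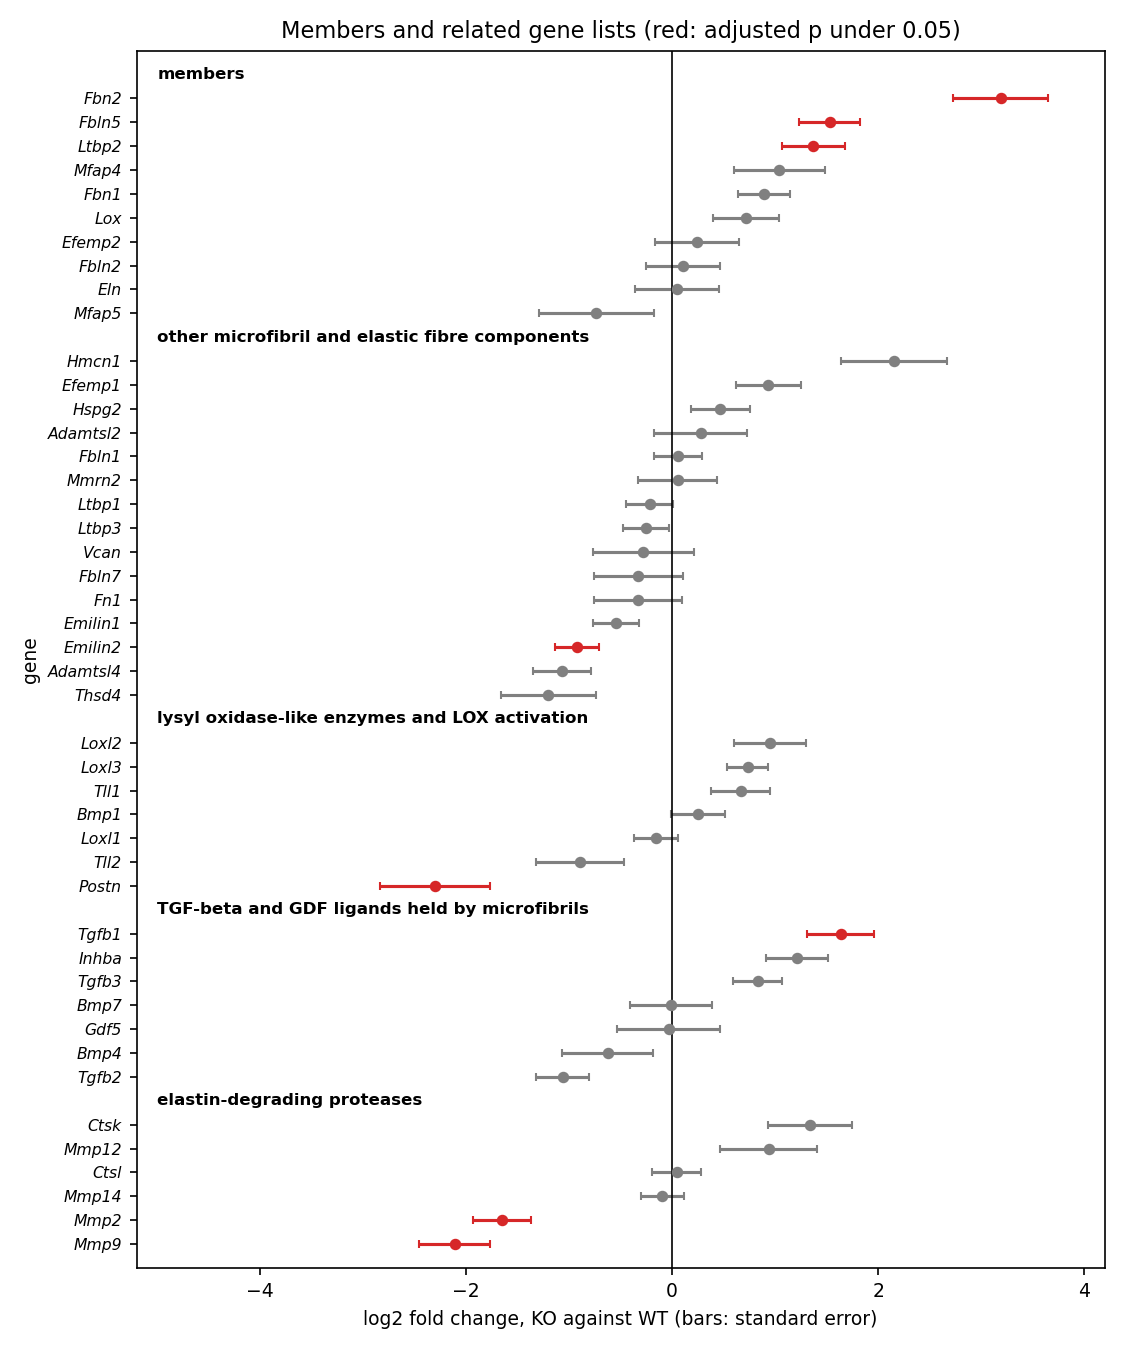
Log2 fold change, KO against WT, of the 10 genes and of the tested genes of the 4 related lists, with bars of 1 standard error and red for an adjusted p under 0.05. The red points are *Fbn2*, *Fbln5*, *Ltbp2* and *Tgfb1* above 0 and *Emilin2*, *Postn*, *Mmp2* and *Mmp9* below 0.

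**Figure D4:**
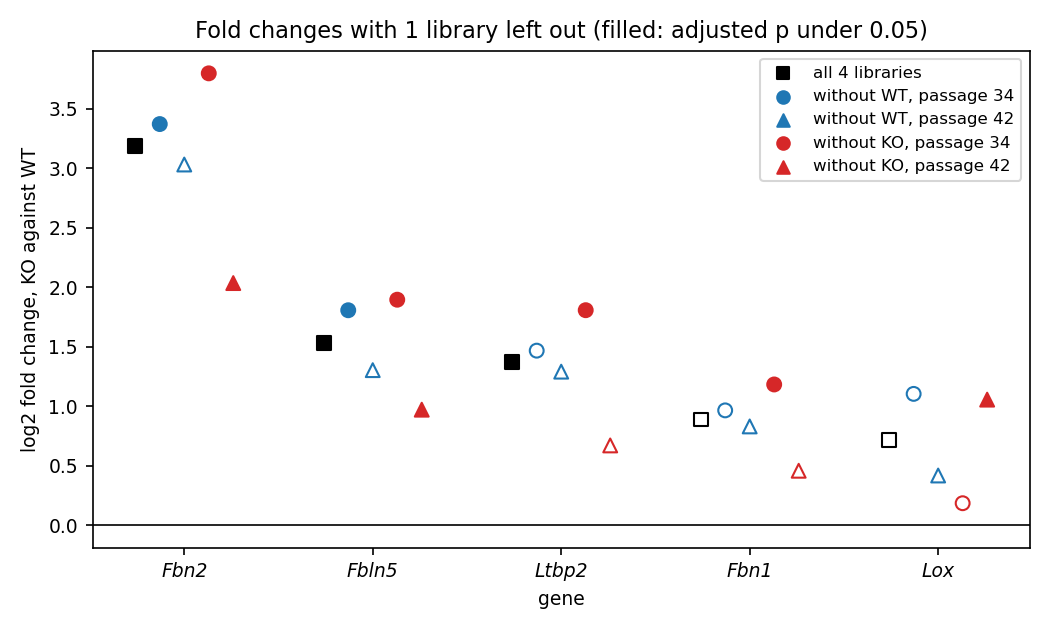
Log2 fold change, KO against WT, of *Fbn2*, *Fbln5*, *Ltbp2*, *Fbn1* and *Lox* with all 4 libraries (black squares) and with 1 library left out, filled where the adjusted p is under 0.05. Every value is above 0, and without the WT library of passage 42 all 5 points are open, while the fits without a KO library had infinite prior degrees of freedom and small p-values.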

How the data were processed

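The deposited values are raw counts per RefSeq transcript ID. The authors removed adapters with cutadapt, mapped reads to NCBI37/mm9 with TopHat2 2.0.9 and counted reads of sufficient mapping quality with HTSeq (tools per the submitters' processing notes and the study's methods). Whether counting used strand is not stated in these sources. Reads in no feature (49.9 to 56.5% of all reads) and ambiguous reads (12.1 to 13.4%) stayed out of library sizes and tests. Symbols were matched for 32308 of 32757 IDs through RefSeq tables, and positions came from GENCODE vM1.

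edgeR 4.0.16 in R 4.3.3 was fitted to all transcripts that reached 1 CPM in the pair of libraries of either genotype (TMM, quasi-likelihood F-test, Benjamini-Hochberg over all transcripts, adjusted p under 0.05), and standard errors came from the fold change and test statistic. Log2 CPM differences used a prior count of 2. An exact permutation test of 2 against 2 libraries gives no two-sided p under 0.333. Alternatives were other scalings, tests (including DESeq2 1.42.0), filters, summed counts, a block and leaving out libraries. The fit was tested on simulated data.

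The 10 genes and all lists were chosen with earlier results of these data known. Named are the 10 genes, *Tmpo* and, per related list, called genes and up to 3 with the smallest p; of the marker lists of fibroblasts, smooth muscle, endothelium, keratinocytes, leukocytes, cartilage and melanocytes, called genes and defining markers chosen after their values were seen. Protein sequences were not used here. Figures were drawn with matplotlib 3.10.9 in Python 3.11.15.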

Additional observations from a re-analysis of the deposited data

Results flagged for a closer look

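In *Fbn2*, *Fbln5*, *Ltbp2*, *Fbn1*, *Eln* and *Mfap5* the genotypes moved in opposite directions between the passages. The share of all transcripts that did so was not counted, so this is not read as a trait of the group. Each combination is 1 library, so none of these differences was tested. For *Fbn2* the change in log2 CPM from passage 34 to 42 was -0.32 in WT and 1.73 in KO, a gap of 2.04. For *Fbln5* it was -0.48 and 0.89, a gap of 1.38. For *Ltbp2* it was -0.16 and 1.10, a gap of 1.26. For *Fbn1* it was -0.12 and 0.69, a gap of 0.81. In these 4 genes WT was lower and KO higher at passage 42.

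In *Eln* and *Mfap5* the KO minus WT difference itself changed sign between the passages. *Eln* had a KO minus WT difference of 0.57 at passage 34 and -0.38 at passage 42, a change of -0.95, and between the passages it moved by 0.72 in WT and -0.24 in KO. *Mfap5* had a difference of -1.74 at passage 34 and 0.58 at passage 42, a change of 2.31, and between the passages it moved by -1.55 in WT and 0.77 in KO. Both genes held 62 counts or fewer in every library.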

How the results depend on the processing

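The calls of *Fbn2*, *Fbln5* and *Ltbp2* held under both other scalings, all 3 other tests, the filter of 1 CPM in all 4 libraries and summed counts. *Fbn1* was also called by each of the 3 other tests. The fits without a filter, with a block and without a KO library had infinite prior degrees of freedom, so their p-values are small and their larger counts do not show stability. With the replicate number as a block (replicate block), 5 of the 10 genes and 1092 transcripts were called, which adds *Fbn1* (adjusted p = 2.79e-04) and *Lox* (0.0498). No source pairs the numbers beyond the passage, and same-numbered libraries deviated together with a correlation of 0.175. Over all transcripts 381 were called, against 612 with the exact test, 638 with the likelihood ratio test and 740 without a filter. With 1 library left out, which assumes that the lone library varies like the other group, between 109 (without WT of passage 42) and 1291 (without KO of passage 42) were called, and between 0 (without WT of passage 42) and 4 (without KO of passage 34) of the 10 genes. The fold changes of 4 low genes changed sign in these fits, with ranges of -0.25 to 0.48 for *Eln* (-0.097 without KO of passage 34), -0.092 to 0.31 for *Fbln2* (-0.055 without WT of passage 34), -1.36 to 0.29 for *Mfap5* and -0.051 to 0.61 for *Efemp2* (-0.040 without KO of passage 34). The cause was not tested.

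For passage, DESeq2 called 48 transcripts and a fit without genotype 0, against 320 in the main passage fit. That fit has the same terms as the fit with a block, so its count does not show stability. Of the 10 genes, DESeq2's size factors in edgeR left 1 (*Lox*), and DESeq2, no filter, summed counts and no term for genotype left 0. Leaving out a library from the passage fit left no residual degrees of freedom and was not run. Over 100 counts in every library were held by 5 of the 10 genes, and for the other 5 depth limits what could be detected.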
